A study of Mus musculus with 11 samples.

Results

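Complex I, the NADH:ubiquinone oxidoreductase, takes electrons from NADH at the entry of the respiratory chain and pumps protons across the inner mitochondrial membrane. The proton-pumping arm of the enzyme is built on a set of hydrophobic subunits whose genes stayed in the mitochondrial genome, whereas the remaining subunits are encoded in the nucleus, made in the cytosol and imported. Mitochondrial DNA is transcribed from both strands into long precursors that are cleaved at the tRNAs, and most of the resulting mRNAs then receive a short poly(A) tail.

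The genes described here are the 7 mitochondrially encoded complex I subunits, mt-Nd1, mt-Nd2, mt-Nd3, mt-Nd4, mt-Nd4l, mt-Nd5 and mt-Nd6, out of 21899 genes with a deposited value. They were taken by their symbols, and all 7 were found by their gene identifiers and passed the filter on low values. RNA-seq of mouse airway was available for 3 PBS libraries, 4 OVA/LPS/Vehicle libraries and 4 OVA/LPS/GGsTop libraries, all from wild-type animals, which the study's methods describe as male BALB/c mice. PBS mice were not sensitised and received saline only. OVA/LPS/Vehicle mice were sensitised and challenged with ovalbumin (OVA), then exposed through the nose to lipopolysaccharide (LPS) and given vehicle into the trachea, which is a model of asthma exacerbation. OVA/LPS/GGsTop mice had the same OVA and LPS and received the γ-glutamyl transferase inhibitor GGsTop in place of the vehicle. No group with GGsTop alone, OVA alone or LPS alone was sequenced among these libraries. The labels name the tissue trachea, but the methods describe bluntly dissected airway without the trachea. The OVA/LPS/Vehicle libraries carry the labels 12, 34, 56 and 78, and the sources used here do not say whether each stands for a single mouse or a pool.

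The libraries held 14513136 to 18632382 fragments, as recovered from the FPKM (fragments per kilobase of exon, scaled to the library total). Markers of secretory and ciliated airway epithelium were present in every library, with summed levels of 32902 to 57251 FPKM and 284 to 600 FPKM, led by Scgb1a1 and Tppp3, and alveolar markers, led by Sftpc, were also high at 4684 to 16437 FPKM. Cartilage markers, which would mark trachea or large bronchi, summed to 0.562 to 58.4 FPKM. The library PBS 3 stood apart. Its mitochondrial genes took 2.08% of the FPKM against 6.39% and 10.1% in PBS 1 and PBS 2, and its transcripts of high GC content were over-represented, with a slope of 0.533 log2 units per 10 points of GC against 0.0611 and 0.0484. The same slope was −0.261 to −0.190 in the OVA/LPS/Vehicle group and 0.0464 to 0.108 in the OVA/LPS/GGsTop group. The mt-Nd genes had a GC content of 33.0% to 41.1%, below the median of 49.9% over the genes tested, so results are also given without PBS 3 and after a correction for GC content.

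All mt-Nd genes but mt-Nd6 lie on the same strand of the mitochondrial chromosome. In GRCm38 coordinates, mt-Nd1 spans chrM:2751-3707, mt-Nd2 chrM:3914-4951, mt-Nd3 chrM:9459-9806, mt-Nd4l chrM:9877-10173, mt-Nd4 chrM:10167-11544 and mt-Nd5 chrM:11742-13565, all on the plus strand, and mt-Nd6 spans chrM:13552-14070 on the minus strand. Each is annotated as a single exon, and the genes of the plus strand follow one another in this order.

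The places where these genes touch matter for how fragments are assigned to them. The mt-Nd4l and mt-Nd4 reading frames overlap by 7 bases (chrM:10167-10173) on the same strand, and both are translated from a single mRNA. In the lines below the shared bases are in capitals and hold the start codon of mt-Nd4 and the stop codon of mt-Nd4l.
mt-Nd4l, last 40 bases: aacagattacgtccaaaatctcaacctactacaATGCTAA
mt-Nd4, first 40 bases: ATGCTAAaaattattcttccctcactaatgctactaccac

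The ends of mt-Nd5 and mt-Nd6 overlap by 14 bases (chrM:13552-13565) on opposite strands, tail to tail. Each sequence is written 5′ to 3′ on its own strand with the overlap in capitals. Whether the counting used the strand is not given in the sources used here, and without it fragments of mt-Nd6 and of RNA antisense to it cannot be told apart.
mt-Nd5, last 40 bases: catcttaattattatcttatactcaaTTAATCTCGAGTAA
mt-Nd6, last 40 bases: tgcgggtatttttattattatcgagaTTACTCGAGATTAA

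Pieces of mitochondrial DNA have also been copied into the nuclear chromosomes, and a read that matches both places equally cannot be assigned to either by its own sequence alone. Windows of 100 bases along each gene were compared with the annotated nuclear transcripts (GENCODE M21). For mt-Nd3, 243 of 249 windows (97.6%) were found unchanged in a nuclear transcript, and the main copy was the unprocessed pseudogene Gm28438 (chr1:24612775-24613119, GRCm38). It matched mt-Nd3 at 344 of the 345 bases compared. The difference is T3C, with the base of mt-Nd3 first and positions counted from its 5′ end, and it lies in the start codon. The first 60 bases of both are shown because they hold this base, which is in capitals.
mt-Nd3: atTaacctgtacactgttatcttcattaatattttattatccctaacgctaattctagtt
Gm28438: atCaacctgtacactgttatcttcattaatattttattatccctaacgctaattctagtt

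For mt-Nd4l, 195 of 198 windows (98.5%) matched, and the neighbouring pseudogene Gm10222 (chr1:24612407-24612700) was identical to it at all 294 bases compared. The whole of mt-Nd4l is shown, since apart from its last bases the same letters stand on chromosome 1.
mt-Nd4l: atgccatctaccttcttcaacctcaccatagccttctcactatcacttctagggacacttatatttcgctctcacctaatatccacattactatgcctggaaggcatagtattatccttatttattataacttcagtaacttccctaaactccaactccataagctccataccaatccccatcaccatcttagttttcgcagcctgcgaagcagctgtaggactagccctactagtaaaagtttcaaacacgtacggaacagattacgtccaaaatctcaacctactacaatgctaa

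The other members matched less. In mt-Nd4, 777 of 1279 windows (60.8%) matched, mostly to Gm28439 (chr1:24611535-24612410), and in mt-Nd2 30 of 939 (3.19%). No window of mt-Nd1, mt-Nd5 or mt-Nd6 was found in a nuclear transcript. Gm28438, Gm10222 and Gm28439 are not among the genes with a value.

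The 7 transcripts fell into separate levels. Averaged over the 11 libraries, mt-Nd1 measured 4929 FPKM, mt-Nd2 3954 FPKM, mt-Nd4 2925 FPKM, mt-Nd5 2444 FPKM and mt-Nd6 916 FPKM, whereas mt-Nd3 and mt-Nd4l measured 3.901 and 3.889 FPKM. FPKM is already divided by length, but not corrected for windows shared with nuclear transcripts. These levels therefore compare assigned fragments, and for mt-Nd3, mt-Nd4l and mt-Nd4 need not reflect the amount of RNA. The order of the 5 abundant members was the same in all 3 group means, but in PBS 3 mt-Nd4 (630.6 FPKM) came before mt-Nd1 (599.8 FPKM) and mt-Nd5 before mt-Nd2. mt-Nd4l was above mt-Nd3 in the means of PBS (1.44 and 0.366 FPKM) and GGsTop (2.80 and 1.33 FPKM) and below it with vehicle (6.81 and 9.13 FPKM). The 5 abundant members were 916 FPKM or more, and neighbours among them overlapped in their range over libraries. Although mt-Nd4l and mt-Nd4 are read from the same mRNA, the mean of mt-Nd4 was 752 times that of mt-Nd4l. The level followed the share of matching windows only in part. The low members mt-Nd3 and mt-Nd4l had the highest shares of the 7, and mt-Co2, mt-Co3 and mt-Atp6, with 99.5% to 99.9% of windows matching, also had low means of 29.6 to 92.8 FPKM. However, mt-Nd4 was abundant with a share of 60.8%. mt-Atp8, with no matching window in an annotated transcript, had the lowest mean of all 13 mitochondrial mRNAs at 0.763 FPKM. Its gene lies between mt-Co2 and mt-Atp6, whose main copies are Gm28661 (chr1:24614885-24615565) and Gm10925 (chr1:24613974-24614651). The genome itself was not searched, so an unannotated copy of mt-Atp8 in the stretch between them would be missed. The lowest 3, mt-Atp8, mt-Nd4l and mt-Nd3, are also the shortest, at 204, 297 and 348 bases, and the part of length or of the nuclear copies in their levels was not tested.

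**Figure D1:**
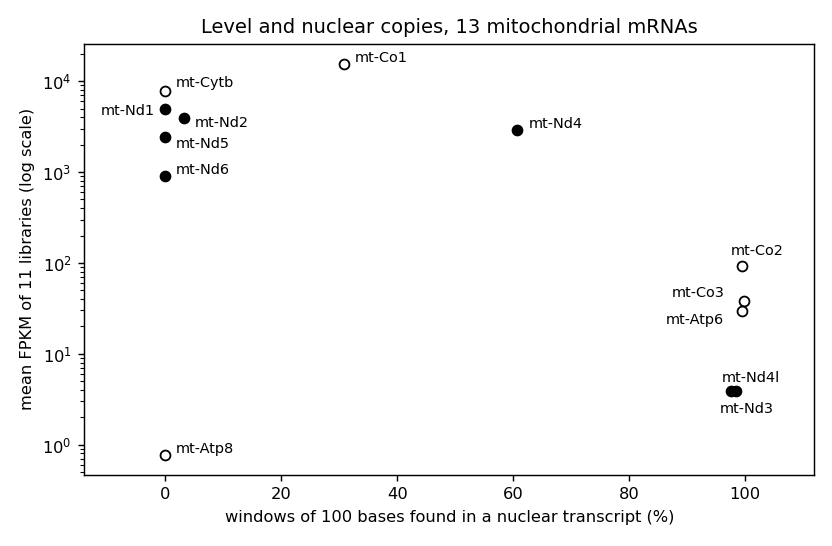
Mean FPKM over 11 libraries (log scale) of the 13 mitochondrially encoded mRNAs against the percentage of their 100-base windows found unchanged in an annotated nuclear transcript. Filled points are the mt-Nd genes and open points the other mRNAs; mt-Nd3 and mt-Nd4l sit at the lower right with 97.6% and 98.5% of windows matching and means under 4 FPKM.

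**Figure D2:**
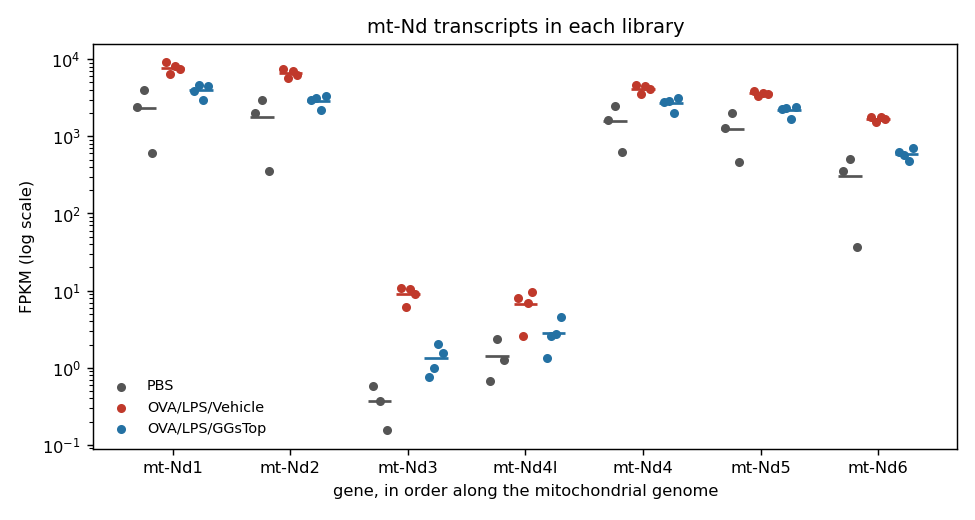
FPKM (log scale) of the 7 mt-Nd genes in each library, ordered along the mitochondrial genome, with a bar at the group mean. Grey points are the 3 PBS, red the 4 OVA/LPS/Vehicle and blue the 4 OVA/LPS/GGsTop libraries; the red points lie above all grey points for every gene, and above all blue points for every gene but mt-Nd4l.

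The comparison of OVA/LPS/Vehicle with PBS asks how the modelled exacerbation changed these transcripts. All 7 mt-Nd genes were higher in the OVA/LPS/Vehicle airway, by 1.60 to 3.15 on the log2 scale, and no OVA/LPS/Vehicle library overlapped with a PBS library for any of them. The fit was made with limma on log2(FPKM + 1) over all 14004 genes tested, and p-values were adjusted over all of these. In this comparison 15.9% of all genes tested were called higher and 22.1% lower at an adjusted p under 0.05, and without overlap 18.7% were higher and 25.4% lower. The median log2 fold change was 2.11 over the 7 members and −0.01 over all genes tested.

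mt-Nd1 and mt-Nd2 code for membrane subunits next to the quinone-binding region and in the pumping arm. mt-Nd1 measured 2434, 3962 and 599.8 FPKM in PBS 1 to 3, and 9098, 6467, 8287 and 7375 FPKM in the OVA/LPS/Vehicle libraries 12, 34, 56 and 78. Its means were 2332 ± 1684 (SD, n = 3) and 7807 ± 1137 FPKM (SD, n = 4), which gave a log2 fold change of 2.11 (SE 0.51, limma, adjusted p = 0.0107). The highest PBS library stayed under the lowest OVA/LPS/Vehicle library, and PBS 3 lay far below the others of its group. mt-Nd2 measured 1997, 2963 and 352.8 FPKM in the PBS group and 7525, 5630, 7051 and 6309 FPKM in the OVA/LPS/Vehicle group. It rose by 2.36 (SE 0.56, adjusted p = 0.0102), again with no overlap and with PBS 3 as the lowest library.

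mt-Nd4 and mt-Nd5 code for the large subunits of the distal membrane arm, which resemble ion antiporters. For mt-Nd4 the PBS libraries had 1648, 2450 and 630.6 FPKM and the OVA/LPS/Vehicle libraries 4596, 3517, 4467 and 4050 FPKM, a log2 fold change of 1.60 (SE 0.38, limma, adjusted p = 0.0104). For mt-Nd5 they had 1291, 2025 and 464.3 FPKM against 3926, 3332, 3597 and 3571 FPKM, a log2 fold change of 1.75 (SE 0.39, limma, adjusted p = 0.00823). The groups did not overlap for either gene, and of the 5 abundant members these 2 had the smallest log2 fold changes.

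mt-Nd6 is the only protein gene on the other strand, transcribed from the light-strand promoter, and its mRNA is known for having little or no poly(A) tail. It measured 357.4, 514.8 and 36.6 FPKM in the PBS libraries and 1797, 1546, 1778 and 1662 FPKM in the OVA/LPS/Vehicle libraries. The means were 303 ± 244 (SD, n = 3) and 1696 ± 116 FPKM (SD, n = 4), and the log2 fold change of 3.15 (SE 0.67, limma, adjusted p = 0.00703) was the largest of the 7 on the log2(FPKM + 1) scale, although mt-Nd3 exceeded it with a pseudocount of 0.1 (4.39 against 3.16) and with voom on the recovered fragments (4.47 against 3.16). The 4 OVA/LPS/Vehicle libraries were close to each other, whereas PBS 3 was about an order of magnitude under PBS 1 and PBS 2. The libraries were made from poly(A)-selected RNA, and its part in the values of mt-Nd6 was not tested.

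mt-Nd3 codes for a small subunit at the junction of the membrane and peripheral arms. It measured 0.572, 0.371 and 0.154 FPKM in PBS 1 to 3, which were 3, 2 and 1 fragments, and 10.8, 6.18, 10.5 and 9.11 FPKM in the OVA/LPS/Vehicle libraries, which were 58, 34, 58 and 53 fragments. The means were 0.366 ± 0.209 (SD, n = 3) and 9.13 ± 2.09 FPKM (SD, n = 4). Its p-value ranked 2 among the 14004 genes tested, with a log2 fold change of 2.88 (SE 0.22, limma, adjusted p = 0.000192). Since 1 is added to each FPKM before the log, this understates the change of a low gene. From the summed fragments per library total, 203 against 6, the level was 26.0 times as high, with a 95% interval of 11.8 to 71.7 that covers counting error only. This is a fold of the fragments assigned to mt-Nd3, of whose windows 97.6% were also found in a nuclear transcript. The sources used here do not say how reads matching several places were counted, and the part of this in the fold was not tested.

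mt-Nd4l, a short subunit of the membrane arm, was low as well and varied more within the group. It measured 0.671, 2.39 and 1.26 FPKM in the PBS libraries and 8.04, 2.56, 6.97 and 9.67 FPKM in the OVA/LPS/Vehicle libraries, which rested on 3 to 11 and 12 to 48 fragments. The groups were separated by a single fragment, 12 in OVA/LPS/Vehicle 34 against 11 in PBS 2. The log2 fold change was 1.63 (SE 0.39, limma, adjusted p = 0.0101), and the summed fragments gave a level 4.76 times as high (95% counting interval 2.99 to 7.95). This too is a fold of assigned fragments, with 98.5% of the windows of mt-Nd4l found in a nuclear transcript.

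Much of the size of these differences came with PBS 3. Without it, the log2 fold changes of OVA/LPS/Vehicle against PBS were 1.32 for mt-Nd1, 1.44 for mt-Nd2, 1.04 for mt-Nd4, 1.155 for mt-Nd5 and 1.98 for mt-Nd6, each still called. mt-Nd3 and mt-Nd4l moved less, to 2.76 and 1.60, and were also still called. After the GC correction the 7 values were 0.96 to 2.48, and all but mt-Nd4l (1.18, adjusted p = 0.0611) were called.

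The comparison of OVA/LPS/GGsTop with OVA/LPS/Vehicle asks what the inhibitor changed in the exacerbation model. The mean of each of the 7 genes was lower with GGsTop, by 0.63 to 2.13 on the log2 scale, but only mt-Nd3 passed the threshold, where 1.81% of all genes tested were called lower and 6.90% higher. Without overlap between the groups, 6 of the 7 were lower, all but mt-Nd4l, against 12.4% of all genes tested. The median was −0.99 over the members and 0.03 over all genes tested.

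In the OVA/LPS/GGsTop libraries 1 to 4, mt-Nd3 measured 0.763, 0.990, 2.003 and 1.55 FPKM, from 4, 5, 11 and 8 fragments. All 4 lay under the lowest OVA/LPS/Vehicle library of 6.18 FPKM. The mean of 1.33 ± 0.56 FPKM (SD, n = 4) corresponded to a log2 fold change of −2.13 (SE 0.20, limma, adjusted p = 0.00139), with rank 3 by p-value among the genes tested. The summed fragments, 28 against 203, gave a level of 0.147 of that with vehicle (95% counting interval 0.0951 to 0.218). mt-Nd3 kept its call in all 19 alternative settings of this comparison (limma, adjusted p from 0.000279 to 0.0142). All of these settings use the same assigned fragments, and none of them addresses the 97.6% of mt-Nd3 windows also found in a nuclear transcript.

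The 5 abundant members were lower in every GGsTop library than in every vehicle library, without passing the threshold. mt-Nd1 measured 3913, 4579, 2949 and 4554 FPKM with GGsTop, a log2 fold change of −0.98 (SE 0.47, limma, adjusted p = 0.183). mt-Nd2 measured 2946, 3171, 2191 and 3356 FPKM, with a value of −1.19 (SE 0.52, adjusted p = 0.147). Both had their lowest GGsTop value in library 3. mt-Nd4 measured 2755, 2902, 2009 and 3153 FPKM (−0.63, SE 0.35, adjusted p = 0.242). mt-Nd5 measured 2231, 2337, 1681 and 2431 FPKM (−0.74, SE 0.36, adjusted p = 0.187). mt-Nd4 and mt-Nd5 again had the smallest differences of the abundant members. mt-Nd6, the gene of the opposite strand, measured 626.7, 572.7, 478.5 and 710.5 FPKM, and its value of −1.52 (SE 0.62, adjusted p = 0.128) was the largest of the 5 in size. The remaining low member, mt-Nd4l, measured 1.34, 2.55, 2.77 and 4.55 FPKM, and 2 of these 4 values exceeded the vehicle library 34, so that the groups overlapped (−0.99, SE 0.36, adjusted p = 0.0938).

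These calls depended on whether the PBS libraries shared in the estimate of the spread. When only the 8 libraries of the groups compared were fitted, 5 of the 7 genes were called lower, namely mt-Nd1, mt-Nd2, mt-Nd3, mt-Nd5 and mt-Nd6, where 10.0% of all genes tested were called lower. With limma's array weights, which gave PBS 3 the lowest weight of all libraries, all 7 were called against 14.2% of all genes tested. After the GC correction the differences shrank to −0.58 for mt-Nd1, −0.21 for mt-Nd4, −0.34 for mt-Nd5 and −1.08 for mt-Nd6, and mt-Nd3 alone was called (−1.68, adjusted p = 0.0142).

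**Figure D3:**
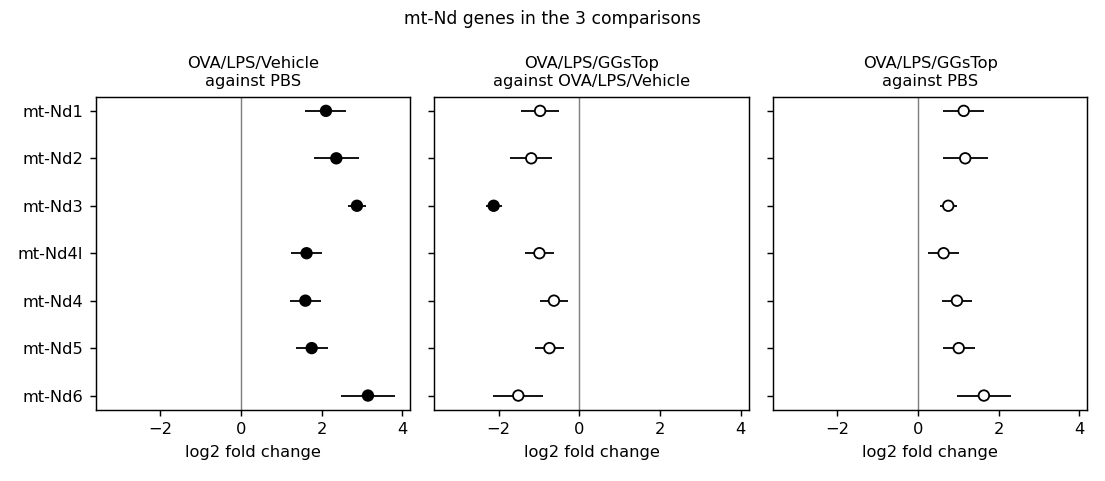
Log2 fold change of each mt-Nd gene in the 3 comparisons, from limma on log2(FPKM + 1); lines are 1 SE and filled points have an adjusted p under 0.05. All 7 points are filled and positive for OVA/LPS/Vehicle against PBS, mt-Nd3 alone is filled for GGsTop against vehicle, and none is filled for OVA/LPS/GGsTop against PBS.

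The comparison of OVA/LPS/GGsTop with PBS asks how far the treated airway was from that of mice without exacerbation. None of the 7 genes was called by limma, where 2.06% of all genes tested were called higher, and voom on the recovered fragments also called 0. At an unadjusted p under 0.05 there were 5, mt-Nd1, mt-Nd3, mt-Nd4, mt-Nd5 and mt-Nd6. Of these mt-Nd1 had the largest p, which ranked 2773 among the 14004 genes tested, so such a p was common over all genes. The log2 fold changes were 1.13 for mt-Nd1, 1.17 for mt-Nd2, 0.97 for mt-Nd4, 1.01 for mt-Nd5 and 1.63 for mt-Nd6, with SE of 0.38 to 0.67 and adjusted p of 0.181 to 0.266. For these 5 genes the GGsTop libraries overlapped with PBS 2. The labels do not say that libraries of the same number belong together. Within the 3 pairs of the same label number, all 7 genes had a higher FPKM in the GGsTop library than in the PBS library. The share of all genes with such a pattern was not computed. For mt-Nd3 the difference rested on 4 against 3 fragments in pair 1. For mt-Nd4l in pair 2 both libraries held 11 fragments, and only the library totals differed. With a replicate block all 7 had an unadjusted p under 0.05 (limma, 0.0193 to 0.0471), and the share of all genes at that threshold was not computed. The members also rise and fall together over the libraries, so these are not 7 independent results. In that fit 0 members were called (limma, adjusted p from 0.202 to 0.301), against 46 genes higher and 16 lower over all genes.

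The low members were likewise not called. mt-Nd3 had a log2 fold change of 0.75 (SE 0.22, limma, adjusted p = 0.084), and its lowest GGsTop library, at 0.763 FPKM, was above the highest PBS library, at 0.572 FPKM. It was the only member without overlap, as were 7.22% of all genes tested, and this rests on 4 fragments against 3. mt-Nd4l had 0.63 (SE 0.39, adjusted p = 0.372). Without PBS 3 the 7 values fell to 0.24 to 0.63, and without PBS 2 they were 0.76 to 2.35, with mt-Nd1, mt-Nd4, mt-Nd5 and mt-Nd6 called. The distance from PBS thus depended on which PBS libraries were kept.

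Added together, the 7 genes gave 7728, 11918 and 2086 FPKM in PBS 1 to 3, 26962, 20500, 25197 and 22986 FPKM in the OVA/LPS/Vehicle libraries, and 12473, 13565, 9313 and 14211 FPKM in the OVA/LPS/GGsTop libraries. The vehicle group lay above both others, and the GGsTop group overlapped with PBS through PBS 2. This sum made up 0.652% to 3.78% of the library FPKM in PBS, 5.80% to 7.89% with vehicle and 2.85% to 4.23% with GGsTop. Within the mitochondrial FPKM, the share of the mt-Nd genes was 31.4% to 40.4% over all libraries. In bulk tissue, fewer cells rich in mitochondria and less mitochondrial RNA per cell cannot be told apart.

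The members did not move by the same factor, which a ratio within each library shows without any scaling between libraries. The log2 ratio of each gene to mt-Nd1 was compared by permutation of the group labels (exact, two-sided), in 18 tests without adjustment, and the smallest p that 4 against 4 libraries allow is 0.0286. With GGsTop, mt-Nd6 was lower against mt-Nd1 than with vehicle, at −2.74 ± 0.18 (SD, n = 4) against −2.19 ± 0.12 (SD, n = 4), a difference of −0.54 (exact p = 0.0286). mt-Nd2 differed in the same direction by −0.22 and mt-Nd3 by −1.87 (exact permutation p = 0.0286 for each). mt-Nd4 differed the other way, from −0.91 ± 0.05 (SD, n = 4) with vehicle to −0.56 ± 0.07 (SD, n = 4) with GGsTop, a difference of 0.34 (exact p = 0.0286). These 4 ratios did not overlap between the groups. A ratio within a library does not correct for windows shared with nuclear transcripts, which were 97.6% for mt-Nd3 and 60.8% for mt-Nd4. The mt-Nd3 ratio also rests on 4 to 11 fragments in each GGsTop library. mt-Nd5 overlapped and differed by 0.23 (exact permutation p = 0.0571), and mt-Nd4l by −0.28 (exact permutation p = 0.657).

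The same genes had the opposite difference between OVA/LPS/Vehicle and PBS, where 4 against 3 libraries allow no p under 0.0571. The ratio to mt-Nd1 was higher with vehicle by 1.05 for mt-Nd6, 2.69 for mt-Nd3 and 0.26 for mt-Nd2, and lower by 0.51 for mt-Nd4, each without overlap (log2 difference −0.51 for mt-Nd4; exact permutation p = 0.0571 for each). mt-Nd5 (−0.35) and mt-Nd4l (0.16) overlapped. Both sets of differences share the vehicle libraries and are therefore not independent of each other. Between OVA/LPS/GGsTop and PBS all 6 ratios overlapped, with exact permutation p from 0.171 to 0.857.

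As a share of the summed FPKM of the 7 genes, mt-Nd6 made up 1.76% to 4.62% in PBS, 6.66% to 7.54% with vehicle and 4.22% to 5.14% with GGsTop. mt-Nd2 made up 16.9% to 25.8%, 27.4% to 28.0% and 23.4% to 23.6% in the same order. mt-Nd4 ran the other way, at 20.6% to 30.2%, 17.0% to 17.7% and 21.4% to 22.2%. The vehicle libraries were thus set apart not only by a higher summed mt-Nd FPKM but by larger shares of mt-Nd6 and mt-Nd2 and a smaller share of mt-Nd4 in it. These are shares of assigned fragments scaled by length and need not reflect the composition of the RNA. The GC slope of the libraries was ordered in the same way, negative in every vehicle library and positive in the others, and its part in these ratios was not tested. mt-Nd6 and mt-Nd2 have a GC content of 34.1% and 35.7%, mt-Nd4 of 35.6%, and the reference mt-Nd1 of 37.6%.

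**Figure D4:**
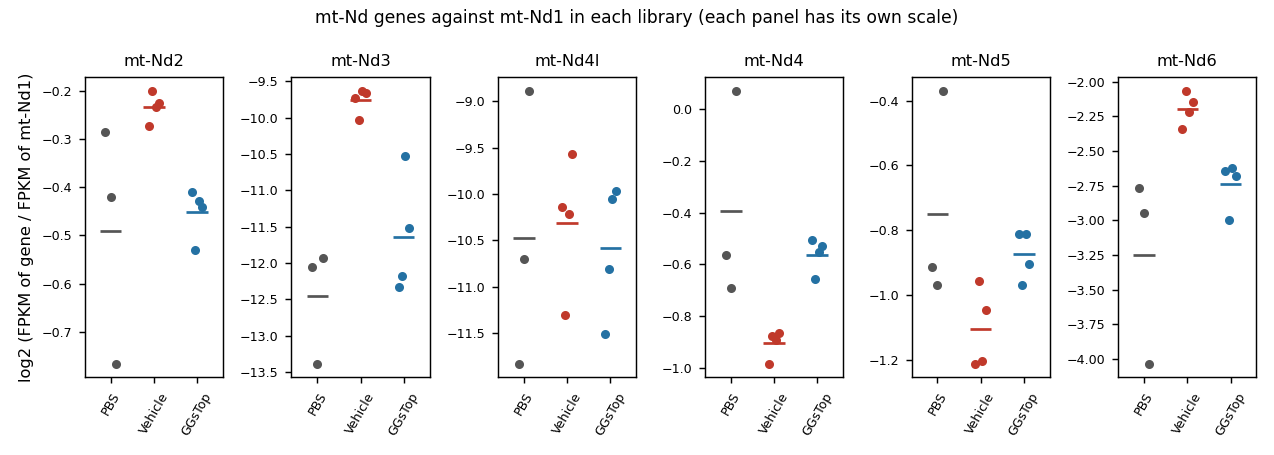
Log2 ratio of the FPKM of each mt-Nd gene to that of mt-Nd1 in each library, with a bar at the group mean and a separate scale for each gene. The red vehicle libraries lie above the blue GGsTop libraries without overlap for mt-Nd2, mt-Nd3 and mt-Nd6 and below them for mt-Nd4; mt-Nd4l and mt-Nd5 overlap.

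Across the 11 libraries the 5 abundant members rose and fell together, with Pearson r of 0.982 to 0.997 on log2(FPKM + 1). mt-Nd3 was less close to them, at 0.756 to 0.798, as was mt-Nd4l, at 0.689 to 0.724, and the 2 low genes had r = 0.845 with each other. These are descriptions, since the libraries fall into groups and share their depth and GC slope. Among 13974 genes outside the mitochondrial genome, those most like the summed mt-Nd level were Atl2, Arfgef1, Ecpas, Smchd1 and Rhoq, with r of 0.983 to 0.991. Atl2, which codes for an atlastin that fuses membranes of the endoplasmic reticulum, had means of 5.55, 9.32 and 7.32 FPKM in the PBS, vehicle and GGsTop groups. The closest to mt-Nd3 alone were Serf1, Set and Zfp763, with r of 0.933 to 0.942, and Serf1 had means of 0.704, 2.66 and 1.17 FPKM.

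Complex I also needs its nuclear subunits, which moved far less than the mt-Nd genes. Of 36 nuclear subunits tested, 14 were called higher and 0 lower by limma in OVA/LPS/Vehicle against PBS (17 and 0 at an unadjusted p under 0.05; 15.9% of all genes tested were called higher), with a median log2 fold change of 0.42. With GGsTop against vehicle 1 was called lower by limma, where 1.81% of all genes tested were called lower. At an unadjusted p under 0.05, 11 were lower and 0 higher. Without overlap between the groups 6 were lower, against 12.4% of all genes tested. Of the 36, 34 had a value below 0, with a median of −0.31. Between the GGsTop group and PBS 0 were called by limma and 1 had an unadjusted p under 0.05, with a median of 0.10.

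Of the 7 nuclear core subunits, which carry the flavin and iron-sulphur clusters and the quinone site, Ndufv2 (0.82, SE 0.23, adjusted p = 0.02005) and Ndufs1 (0.77, SE 0.25, adjusted p = 0.0320) were higher in OVA/LPS/Vehicle than in PBS, and had values of −0.45 each, not called, with GGsTop against vehicle. Of 29 accessory subunits, 12 were called higher, among them Ndufc2 (0.95), Ndufa3 (0.44), Ndufa5 (0.99), Ndufb5 (0.74) and Ndufb3 (0.61). Ndufa3 was also the 1 subunit called lower with GGsTop (−0.35, SE 0.09, limma, adjusted p = 0.0337). The mt-Nd genes thus had a median log2 fold change of 2.11, against 0.13 for the core and 0.44 for the accessory subunits of the same enzyme.

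Among 17 assembly factors, which build the enzyme and do not stay in it, 3 were called higher in OVA/LPS/Vehicle than in PBS, a share close to the 15.9% of all genes tested. They were Timmdc1 (0.54, adjusted p = 0.00457), Ndufaf4 (0.98, adjusted p = 0.00648) and the membrane protein gene Tmem70 (0.75, adjusted p = 0.0169). Timmdc1, which takes part in assembling the membrane arm around the mt-Nd1 protein, was the only one called lower with GGsTop (−0.38, adjusted p = 0.0347). Ndufaf4 had −0.66 and Tmem70 −0.56 in that comparison and did not pass.

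Of 17 genes for the transcription and replication of mitochondrial DNA, 7 were called higher and 2 lower in OVA/LPS/Vehicle than in PBS, where 15.9% of all genes tested were called higher and 22.1% lower. Higher were the Mterf family members Mterf4 (0.49), Mterf1a (0.62) and Mterf3 (0.66). Lower were Polg, the catalytic subunit of the mitochondrial DNA polymerase (−0.64, adjusted p = 0.00655), and Top1mt, the mitochondrial topoisomerase (−0.51, adjusted p = 0.0232). With GGsTop, Polg was called higher than with vehicle (0.52, SE 0.12, adjusted p = 0.0331), opposite in sign to the mt-Nd genes.

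Of 18 genes for mitochondrial RNA processing and decay, 5 were called higher and 3 lower in OVA/LPS/Vehicle than in PBS, against the same 15.9% and 22.1% of all genes tested. Trmt10c, a subunit of the RNase P that cleaves the precursor at the 5′ ends of tRNAs, measured 4.58 ± 1.24 FPKM (SD, n = 3) in PBS, 8.88 ± 0.91 (SD, n = 4) with vehicle and 5.09 ± 0.45 (SD, n = 4) with GGsTop. It was higher with vehicle than in PBS (0.85, SE 0.15, limma, adjusted p = 0.00409) and lower with GGsTop than with vehicle (−0.70, SE 0.14, adjusted p = 0.0204). Pnpt1, the polynucleotide phosphorylase of the mitochondrial degradosome (0.91), and Fastkd1 (0.54) were also higher, and Elac2, the RNase Z that cleaves at the 3′ ends of tRNAs (−0.43), and Tbrg4 (−0.43) were lower. Trmt10c was the only gene of this list called in the GGsTop comparison.

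**Figure D5:**
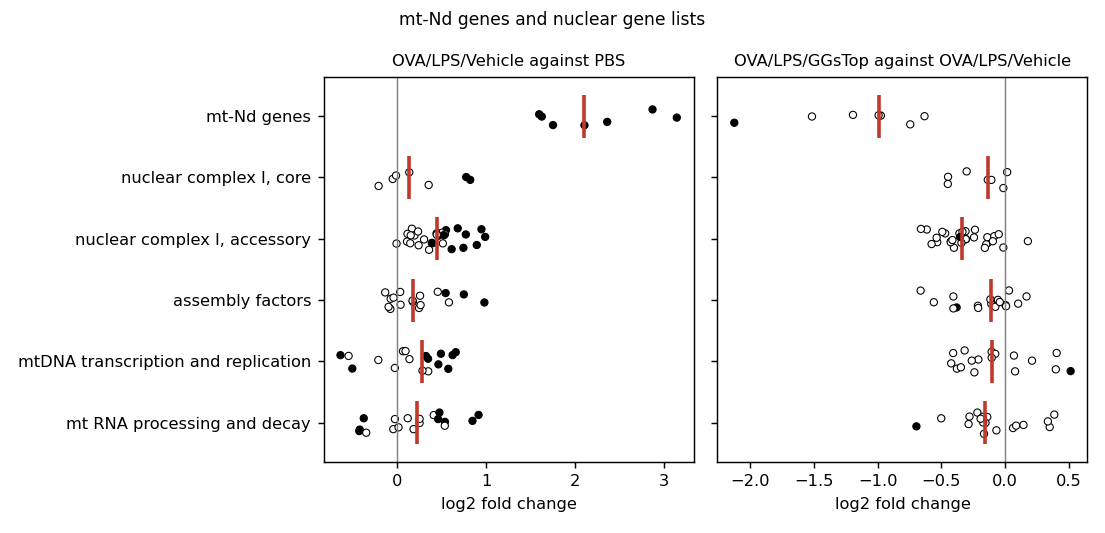
Log2 fold change (limma, log2(FPKM + 1)) of the mt-Nd genes and of 5 lists of nuclear genes for complex I and mitochondrial RNA. Each point is a gene, filled where its adjusted p is under 0.05, red bars are medians, and the panels have separate scales; the mt-Nd median is 2.11 in the first panel and −0.99 in the second, farther from 0 than the median of every nuclear list shown.

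Tissues rich in mitochondria could lie beside the dissected airway, and their markers varied between libraries. The 10 cardiac muscle markers, which the muscle sleeve of the pulmonary veins also expresses, summed to 96.6 to 2004 FPKM in PBS, 984 to 1609 with vehicle and 624 to 2708 with GGsTop, and 3 of them (Tnnt2, Tnni3, Myl4) were called higher in vehicle than in PBS. With GGsTop against vehicle 0 of the 10 were called by limma, 0 had an unadjusted p under 0.05, and their median was 0.03. Myl7, an atrial myosin light chain and the most abundant of them, measured 1.01 to 767, 382 to 658 and 225 to 1081 FPKM in the 3 groups. The 6 brown fat markers summed to 10.2 to 186 FPKM, 196 to 721 and 24.3 to 217 in the same order. Elovl3 and Cox7a1 of this list were called higher in vehicle than in PBS, and whether their transcripts came from brown fat was not tested. All 6 had values below 0 with GGsTop against vehicle, 4 of them at an unadjusted p under 0.05 and none called by limma. Ucp1, the uncoupling protein that defines brown fat, measured 1.38 to 57.4 FPKM in PBS, 74.2 to 363 with vehicle and 0 to 54.7 with GGsTop, so it did not overlap between the vehicle and the other libraries, as was the case for the abundant mt-Nd genes. White fat markers summed to 37.8 to 287, 153 to 324 and 25.9 to 363 FPKM, and skeletal muscle markers to 20.1 to 98.4, 64.0 to 163 and 37.4 to 129 FPKM. With GGsTop against vehicle, all 6 white fat markers also had values below 0, with a median of −1.03. The same held for all tested markers of basal epithelium, cartilage and T cells, whereas all tested smooth muscle and eosinophil markers had values above 0. Markers of the thyroid, which lies against the trachea, were also measured. The 6 of them summed to 2.04 to 4.01 FPKM in PBS, 18.7 to 317 with vehicle and 3.71 to 15.1 with GGsTop. Tg, the thyroid hormone precursor, measured 0.305 to 0.828, 0.256 to 303 and 0.147 to 1.44 FPKM, and was called higher in vehicle than in PBS (4.99, adjusted p = 0.0201) and lower with GGsTop than with vehicle (−5.10, adjusted p = 0.0406), although the groups overlapped. Of the 3 genes of this list that were tested, Slc26a4 was also called higher in vehicle than in PBS (2.06). Whether its transcripts came from thyroid was not tested. All 3 had values below 0 with GGsTop against vehicle.

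Markers of the lung epithelium differed between the groups as well. Ciliated markers summed to 284 to 401 FPKM in PBS, 356 to 445 with vehicle and 380 to 600 with GGsTop, and 6 of the 7 tested were called higher in vehicle than in PBS, with a median log2 fold change of 1.41. Secretory markers summed to 32902 to 39219, 37300 to 57251 and 44503 to 51182 FPKM, with 4 of 7 called higher and a median of 2.63. Alveolar markers summed to 10315 to 16437, 5307 to 8740 and 4684 to 12054 FPKM, with Aqp5, Ager and Sftpb called lower in vehicle than in PBS. With GGsTop against vehicle the medians of these 3 lists were −0.07, 0.02 and 0.16, and no gene of them was called by limma, with 1 secretory and 2 alveolar markers higher at an unadjusted p under 0.05. In the same comparison the mt-Nd median was −0.99. No marker of the lists given was at 0 in all libraries. The part of these tissues and cell types in the mt-Nd levels was not tested.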

How the data were processed

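Per the labels, poly(A) RNA was sequenced and the submitters' processing notes name cutadapt 1.15, HISAT2 2.0.5, HTSeq 0.9.1 and the build mm39. The authors deposited FPKM for 11 libraries and 21899 genes, without further scaling. Gene symbols, exon lengths, GC content and coordinates came from GENCODE M21 (GRCm38), with 21795 genes matched, and no coordinate was carried to mm39. FPKM times exon length was a whole number of fragments within 0.05 in every library for 21376 genes (97.6%), which gave the depth.

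The main test was limma 3.58.1 (R 4.3.3) with a trended empirical Bayes step on log2(FPKM + 1). It used genes with a mean FPKM of 0.5 or more, fitted all 3 groups together, was two-sided and had Benjamini-Hochberg adjustment over 14004 genes. The tool named in the study's methods needs counts and was not used. Ratios to mt-Nd1 were compared by exact permutation (scipy 1.17.1). Nuclear copies were sought as exact matches in annotated transcripts. Counting intervals and values of 1 fragment cover counting error only, and the labels do not say whether replicates are separate animals, so p-values measure the spread between these libraries. No pair of libraries agreed within counting noise (chi-square per degree of freedom of 15.0 or more).

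The mt-Nd genes and all lists were chosen with earlier results of these data known. Named from each nuclear list were the called genes, up to the 5 with the smallest p. Named as most alike were the 5 genes of highest correlation with the summed mt-Nd level and the 3 for mt-Nd3. Lists of basal, smooth muscle, cartilage and immune cell markers were also computed, and each had 0 to 2 genes called in a comparison.

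PBS 1 to 3 and OVA/LPS/GGsTop 1 to 3 share numbers in the labels. The deviations of same-numbered libraries from their group means correlated at 0.367, 0.427 and 0.428, so a replicate block was fitted, although PBS 1 correlated more with OVA/LPS/GGsTop 3 (0.457). Alternatives covered the pseudocount (0.1), filters, scaling, weights, GC correction (natural spline, 5 degrees of freedom), voom on recovered fragments, the block, and each library left out.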

Additional observations from a re-analysis of the deposited data

Results flagged for a closer look

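One value stood apart from its group. The log2 ratio of mt-Nd6 to mt-Nd1 was −2.999 in OVA/LPS/GGsTop 2, and −2.68 to −2.62 in the other libraries of that group. Its gap to the nearest library was 0.849 of the range of the group, above Dixon's 95% critical value for 4 samples. Of 28 groups of 4 libraries examined in this way it was the only one, and chance flags about 1 in 20. Without this library the ratio still did not overlap with the vehicle group.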

How the results depend on the processing

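In OVA/LPS/Vehicle against PBS the 7 mt-Nd genes kept their direction under all 18 alternatives, and 2 calls were lost, mt-Nd1 without a filter on low values (adjusted p = 0.0543, limma) and mt-Nd4l with the GC correction. In GGsTop against vehicle 1 member was called, 5 with only the groups compared and 7 with array weights. In OVA/LPS/GGsTop against PBS 0 were called, 1 with a pseudocount of 0.1 (mt-Nd3), 2 with array weights (mt-Nd4, mt-Nd5), and 0 to 4 when each library was left out, the 4 without PBS 2. The replicate block called 0 members, as did the block with the GC correction and the same 6 libraries without the block, and it changed no call of a member. No direction of a member reversed in any comparison.

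Against mt-Nd4 in place of mt-Nd1, the ratio of mt-Nd2 in OVA/LPS/Vehicle against PBS was 0.77. That of mt-Nd5 reversed, to 0.16 in OVA/LPS/Vehicle against PBS, −0.11 in GGsTop against vehicle and 0.044 in OVA/LPS/GGsTop against PBS, and mt-Nd4l reversed to 0.053 in the last. With each library left out, the ratio to mt-Nd1 in OVA/LPS/GGsTop against PBS ran from −0.10 to 0.14 for mt-Nd2, −0.32 to 0.066 for mt-Nd4, −0.79 to 0.68 for mt-Nd4l and −0.23 to 0.067 for mt-Nd5. For mt-Nd4l it ran from −0.52 to 0.95 in OVA/LPS/Vehicle against PBS and −0.61 to 0.033 in GGsTop against vehicle. Each ratio that reversed had overlapping groups as reported, and the cause of the reversals was not tested.

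Over all genes, GGsTop against vehicle gave 254 lower and 966 higher calls, and 1982 and 3232 with array weights, 1406 and 2119 with only the groups compared, 61 and 252 with the GC correction, 155 and 2026 at the same FPKM total, 153 and 702 at the same nuclear total, 354 and 344 at the same median, and as few as 4 and 20 without OVA/LPS/GGsTop 1. The same FPKM total moved the median of all genes to 0.11 there and to −0.15 in OVA/LPS/Vehicle against PBS, which then had 4570 lower and 1232 higher calls in place of 3096 and 2231, and 1866 and 1135 with the GC correction. OVA/LPS/GGsTop against PBS had 115 lower and 288 higher calls, 16 and 46 with the replicate block, 1178 and 1379 with array weights, 9 and 30 with only the groups compared, 8 and 21 without PBS 1, 17 and 39 without PBS 3 and 642 and 955 without PBS 2. Depth limits mt-Nd3 and mt-Nd4l, at 1 to 58 fragments a library.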

Other observations

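The mitochondrial genome encodes 6 further proteins, of complexes III, IV and ATP synthase. All 6 were called higher in OVA/LPS/Vehicle than in PBS by limma, where 15.9% of all genes tested were called higher. With GGsTop 3 of them were called lower than with vehicle, mt-Atp6 (−2.14), mt-Co3 (−1.94) and mt-Co2 (−1.43), where 1.81% of all genes tested were called lower. These 3 are the ones with 99.5% to 99.9% of their 100-base windows found in nuclear transcripts on chromosome 1, and mt-Nd3, the only mt-Nd gene called there, had 97.6%. The other gene with such a share, mt-Nd4l, had a value of −0.99 and was not called. The abundant mt-Co1 and mt-Cytb, with shares of 30.8% and 0%, were not called with GGsTop. The short mt-Atp8, at 0 to 8 fragments a library, was not called either. Its share of 0% counts annotated transcripts only, and an unannotated copy would be missed. The part of the nuclear copies in these differences was not tested.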
